A study of Mus musculus with 107 samples.

Results

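The 40 genes described here follow the oligodendrocyte lineage from the transcription factors of its precursors to the proteins of compact myelin. They were chosen by name from what is known of this lineage, at a time when earlier results of these data were known. They are 40 of the 27179 genes in each count table, named members here. Oligodendrocytes wrap axons of the brain and spinal cord in myelin, a stack of lipid-rich membrane. Their precursors divide under growth factors, carry Olig factors and the proteoglycan NG2, pass through a short premyelinating state, and only then make myelin proteins in quantity. Neural progenitors grown as cultures can enter this path when mitogens are withdrawn, while serum and cytokines of the CNTF family turn such cultures towards astrocytes.

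The 7 early lineage genes, the mark of precursors and of cells that have just left the cycle, were kept apart from the rest. Of these 7, Olig1 and Olig2 encode helix-loop-helix transcription factors, Nkx2-2 a homeodomain factor and Cspg4 the NG2 proteoglycan. Gpr17 encodes a receptor of committed precursors, Bcas1 a protein of cells starting to make myelin, and Enpp6 a choline-specific phosphodiesterase of newly formed oligodendrocytes. Another 8 genes were called intermediate. They are the regulators Nkx6-2, Myrf (which turns on myelin genes), Tcf7l2 and Zfp488, the calcium channel gene Itpr2, the sialidase gene Neu4, and the membrane and secreted protein genes Lhfpl3 and C1ql1. The 25 mature myelin genes include those of myelin's adhesion and surface proteins (Mbp, Mobp, Mag, Mog, Mal, Opalin, Cldn11, Tspan2, Tmem88b) and of its connexins (Gjc3, Gjb1). Others make galactolipids (Ugt8a, Fa2h, Gal3st1), bind the cytoskeleton or its regulators (Ermn, Cnp, Ppp1r14a, Fyn), or act in metabolism, iron transport and deacetylation (Aspa, Car2, Qdpr, Trf, Sirt2). Hapln2 encodes a link protein of the matrix at nodes of Ranvier and Gpr37 a receptor of maturing cells.

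RNA on ribosomes that carry the HA-tagged protein Rpl22 was pulled down and sequenced in 107 libraries of 23 groups. The cells came from 1 female C57BL/6 mouse embryonic stem cell (ESC) line in which Sox2-cre had switched on the tag in all cells. ESC were turned into neural progenitor cells (NPC), which were kept with EGF and FGF at 100 ng/ml for 5, 15 or 30 passages (P5, P15, P30) and derived anew for the groups NPC P15 D2 and D3. Libraries are compared in CPM, a gene's count scaled to the same total in each library, and genes in FPKM, which is CPM per 1000 bases of exon.

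Differentiated cultures had 4 days at 1 ng/ml of EGF and FGF with nothing added (SPONT), with IGF-1 or CNTF at 100 ng/ml, with 1%, 5%, 10% or 20% fetal bovine serum (FBS), or with CNTF and 5% FBS. NPC media were NPC that had been passed through a pipette in medium. NPC DCH 4 h were kept for 4 hours in the hydrogel carrier DCH and then passed through a pipette. NPC DCH were NPC that had been passed through a pipette in DCH without that wait. Grafts of such NPC were put into the thoracic cord of C57BL/6 mice of both sexes, 8 weeks to 4 months old and without immunosuppression. Their RNA was taken after 14 days in uninjured cord (Graft uninjured), a crush lesion (Graft SCI 14 d) or a double crush (Graft dSCI), or after 5 days in a crush lesion (Graft SCI 5 d). Injured cords were grafted 2 days after the crush. Host astrocytes came from healthy and crushed cords of mice in which 73.12 Gfap-Cre switches on the same tag in host cells (Host healthy and, at 14 days after the crush, Host SCI). In the paper, crushed cords without tagged grafts yielded little RNA and no transcripts of the tag. Tag transcripts in grafts at 5 days did not differ statistically from those in NPC before grafting. Whether RNA of untagged cells is part of the tissue libraries was not tested here.

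Host healthy had 9 libraries, NPC P15 D2 6, each other tissue or pipette group 5 and each other culture group 4. Counts per library ran from 30473157 to 147764968 in the 96 libraries made of 2 sets of reads. In the 11 libraries of NPC P15 D2 and Graft SCI 5 d, which have 1 set each, they ran from 12286240 to 18085106. Replicates are numbered, and nothing in the labels ties a number in one group to the same number in another. P-values measure the spread between these libraries.

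Some libraries stood apart from others of their group. SPONT replicates 1 and 2 held more mature myelin RNA than replicates 3 and 4, with summed CPM of the 25 genes at 3846, 3277, 2334 and 2299. Graft SCI 5 d replicates 4 and 5 did so as well, with sums of 2160, 2420, 2368, 13557 and 11757. Graft uninjured replicate 5 was the lowest of its group in early lineage RNA, with sums of 5132, 5448, 6054, 4751 and 1794 CPM. The same library was the highest in the 7 neuronal markers. Host healthy replicates 1 to 7 held RNA of 4 Y-linked genes, at 64.3 to 101.8 CPM summed, while replicates 8 and 9 held 0.0823 and 0.0533 and all Host SCI libraries under 1. Sex and injury thus cannot be told apart where these 7 healthy hosts serve as reference. Counts of members called that rest on these libraries are given with and without them.

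Early lineage RNA and mature myelin RNA followed different courses through the series. The 7 early genes together reached 136, 128.3, 136 and 138 CPM in ESC and 7842, 7610, 7820 and 7862 CPM in NPC P15. In the SPONT cultures they held 6478, 6347, 5906 and 5556 CPM. No other group reached the early sums of NPC P15, of which Olig1 alone made up 72.8%. NPC P15 D2, at 2905.5 to 3240.8 CPM, and D3, at 2092.4 to 2530 CPM, lay below all SPONT libraries. Whether early RNA fell or rose in SPONT thus depends on the NPC taken as reference. The 25 mature genes gave 1589, 1535, 1530 and 1578 CPM in NPC P15 and 5150, 5222, 4542 and 4574 CPM in the IGF-1 cultures. In Graft uninjured they gave 15159, 26985, 16524, 30696 and 24249 CPM, and in Host SCI 42991, 39131, 38440, 29569 and 27458 CPM. Every library of Host SCI but replicates 4 and 5 lay above every library of every other group. In bulk RNA of this kind, fewer cells of a type and less RNA in each cell cannot be told apart.

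**Figure D1:**
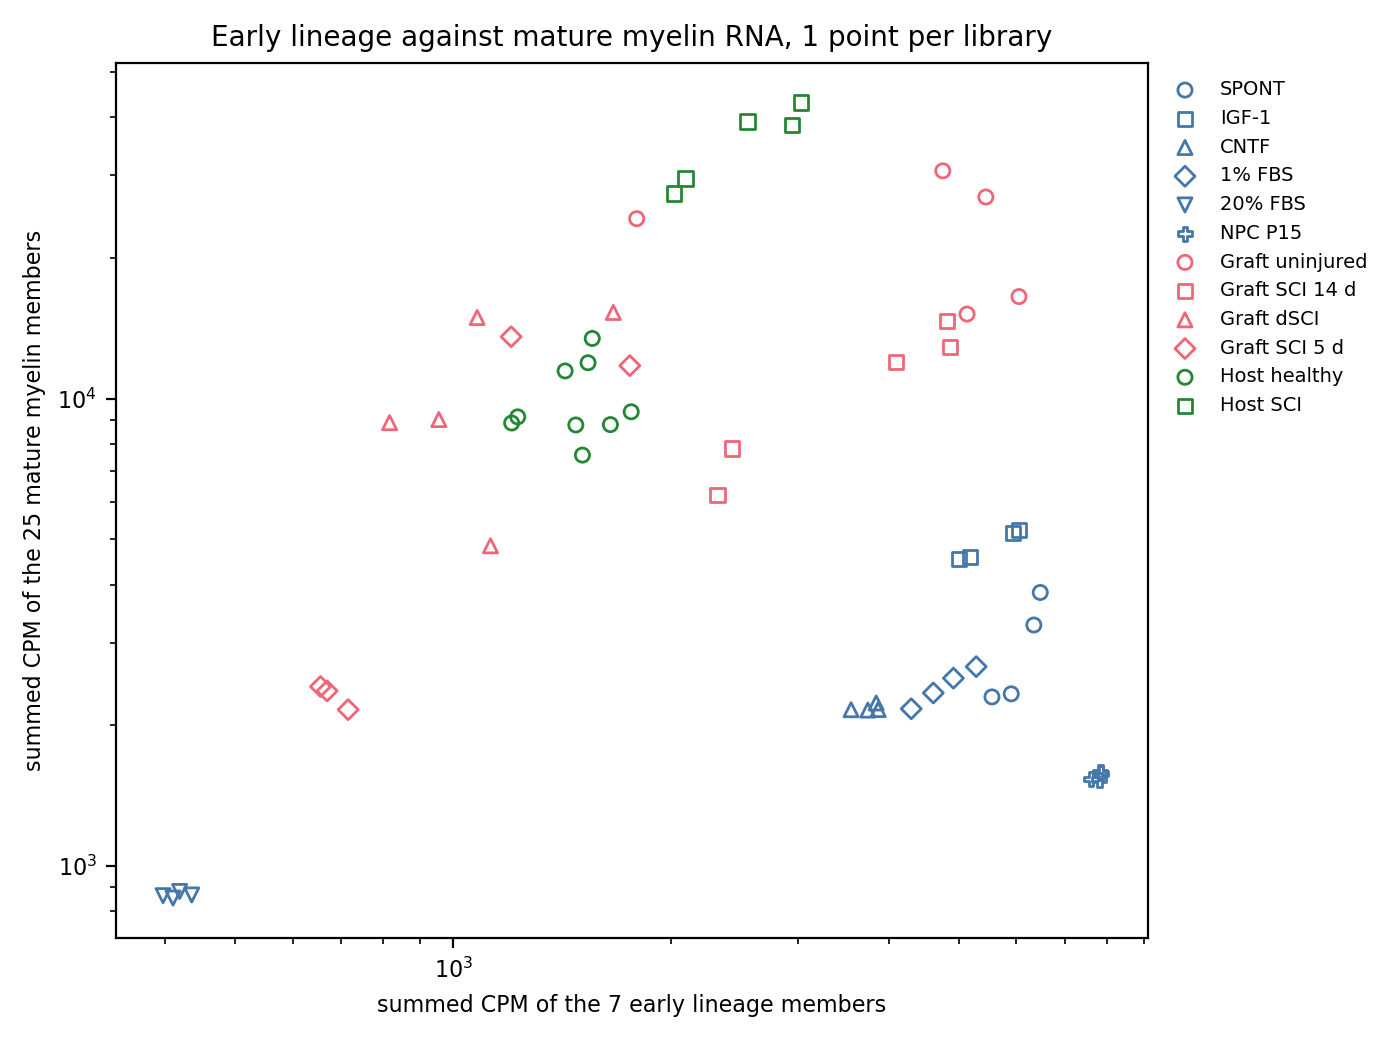
Summed CPM of the 25 mature myelin genes (vertical, log axis) against summed CPM of the 7 early lineage genes (horizontal, log axis), 1 point per library in 12 groups. NPC P15 lie farthest right, with early sums of 7610 to 7862 CPM, and Host SCI lie highest, with mature sums of 27458 to 42991 CPM.

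The most abundant mature genes also changed with the setting, here on the FPKM scale that allows genes to be compared. In NPC P15 they were Trf at 189 FPKM, Fyn at 158.6 and Qdpr at 28.3 (means of 4 libraries), and in ESC Qdpr at 29.2, Cnp at 9.19 and Ppp1r14a at 9.13. NPC P5, P30, D2, D3 and the 3 pipette groups had the same leading genes as NPC P15, in changing order. Trf, Fyn and Qdpr act outside myelin too, so a level in progenitors does not mark an oligodendrocyte. In SPONT the leaders were Cnp at 285 FPKM, Fyn at 129 and Sirt2 at 123, and in IGF-1 Cnp at 400, Sirt2 at 202 and Mbp at 166. CNTF and 1% FBS cultures led with Cnp, Sirt2 and Fyn, and those with 5%, 10% or 20% FBS and CNTF with 5% FBS led with Cnp, Trf and Sirt2. Mbp led in every tissue group, at a mean of 1315 FPKM in Graft uninjured, 529 in Graft SCI 14 d, 590 in Graft dSCI, 343.8 in Graft SCI 5 d, 509 in Host healthy and 2317 in Host SCI. The next genes in tissue were Trf, Cnp or Cldn11, except that Car2, at 225 FPKM, was the third gene in Host healthy.

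ESC become NPC before any glial fate is open to them, and NPC P15 were compared with ESC to see which lineage genes the progenitor state already holds. Groups were compared by edgeR, and a gene was called when its p, adjusted over all genes tested, was below 0.01. Among 31 members with enough counts to test, 18 were called, 13 higher and 5 lower, against 67.2% of all genes tested, 32.2% higher and 34.9% lower. Another 9 members were too low to test. The median log2FC, the log2 of the ratio of NPC P15 to ESC, was 1.01 for the members tested and −0.10 for all genes. Of the 7 early genes 5 rose.

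Olig1 (Entrez 50914, chr16:91269769-91271939 on GRCm38.p6) held 70.1, 66.9, 68.9 and 77.3 CPM in ESC and 5690, 5523, 5686 and 5757 CPM in NPC P15. The groups lay far apart, and the rise was log2FC 6.23, SE 0.051, adjusted p 1.25e-14. Olig2 rose with log2FC 4.73, SE 0.051, adjusted p 9.68e-14, Nkx2-2 with log2FC 8.94, Cspg4 with 7.11 and Bcas1 with 5.80. The receptor gene Gpr17 was at 0.0506, 0.203, 0.168 and 0.134 CPM in ESC and as low in NPC P15, and was not called (log2FC 0.64), and Enpp6 was too low to test. Of the 3 genes of later precursors, Bcas1 was thus present in progenitors and Gpr17 and Enpp6 were near 0. Outside the early list Lhfpl3 (log2FC 8.91), Itpr2 (5.97), Trf (4.63), Fyn (4.52), Gpr37 (3.41) and Tcf7l2 (2.17) rose most. Myrf, the regulator of myelin genes, was at 242, 250, 256 and 244 CPM in ESC and 7.71, 8.14, 8.82 and 8.32 CPM in NPC P15. All ESC libraries lay above all NPC libraries, and Myrf fell by 5.00 log2 units. Ppp1r14a (−4.67), Mog (−4.01) and Mbp (−1.52) were lower too, from ESC levels below those of Myrf in every library. Of 8 other early lineage genes 4 rose and 3 fell, and of 14 other mature genes 2 rose and 6 fell, with the growth factor gene Bmp4 (log2FC −9.01) and the membrane protein gene Tmem125 (−8.93) furthest down.

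Withdrawal of mitogens lets NPC leave the cycle and differentiate, and SPONT cultures show what they do with no factor added. Members called numbered 28 of the 36 tested, 25 higher and 3 lower, against 57.2% of all genes, 29.8% higher and 27.4% lower. The median log2FC of SPONT to NPC P15 was 2.96 over the members and 0.09 over all genes. Of the early genes 3 rose and 2 fell, of the intermediate genes 6 rose, and of 21 mature genes tested 16 rose and 1 fell. All 6 astrocyte markers rose as well.

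The committed-precursor receptor Gpr17 (Entrez 574402, chr18:31942999-31949890) went from 0.5, 0.168, 0.108 and 0.135 CPM in NPC P15 to 2322, 1684.2, 1220 and 1103 CPM in SPONT. No library of one group came near the other, and the fold change rests on a few counts in NPC (log2FC 12.78, adjusted p 1.7e-09). Enpp6, of newly formed oligodendrocytes, was at 0 to 0.0258 CPM in NPC P15 and 49.7, 26.3, 6.85 and 6.97 CPM in SPONT. SPONT replicates 1 and 2 held several times the Enpp6 of replicates 3 and 4. Bcas1 rose with log2FC 2.63, SE 0.218, adjusted p 1.24e-06. Mbp, which joins the membrane layers of myelin, went from 3.7, 6.17, 5.18 and 5.73 CPM to 749, 567, 116 and 114 CPM, split in the same way (log2FC 6.36, SE 0.687, adjusted p 1.02e-05). Opalin (log2FC 9.75), Neu4 (9.59), Fa2h (8.89), Gjc3 (8.29) and Gal3st1 (6.37) rose most after Gpr17 and Enpp6, each from near 0 CPM in most NPC libraries. Cnp, already present in NPC, rose with log2FC 3.99, SE 0.137, adjusted p 1.55e-09. Transferrin went the other way, from 628, 612, 603 and 662 CPM to 15.6, 18.4, 15.8 and 14.1 CPM, and fell by 5.16 log2 units.

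Olig1 lay at 5523 to 5757 CPM in NPC P15 and fell to 2073, 2389, 2796 and 2658 CPM in SPONT (log2FC −1.06, SE 0.085, adjusted p 8.98e-07). Olig2 fell less (log2FC −0.75), and Nkx2-2 (0.11) and Cspg4 (−0.00) were not called. These 4 values depend on which NPC stand as reference. With NPC P5 as reference 5 early genes were called higher, Nkx2-2 among them, and 2 lower. NPC P15 D3 held only 1244, 1201, 1061 and 1196 CPM of Olig1, and against them Olig1 was higher in SPONT by 1.14 log2 units and Olig2 by 0.11. Against NPC P15 D2 the values were 0.49 for Olig1 and 0.14 for Olig2, and Cspg4 was higher against P5 (0.87), P30 (1.09), D3 (1.33) and D2 (0.74). Against P30 neither Olig1 (−0.25) nor Olig2 (−0.12) was called. The labels do not say which derivation the SPONT cultures came from. Sox10, a factor that drives myelin genes (log2FC 8.28), and the protocadherin gene Pcdh15 (7.75) rose most among the other lineage genes, of which 6 of 8 early and 6 of 14 mature genes rose and 1 of each fell. The 28 members called were 31 with SPONT replicates 3 and 4 alone (52.3% of all genes) and 28 with replicates 1 and 2 alone (39.7%).

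IGF-1 is a survival and maturation factor for cells of this lineage and was added to favour oligodendrocytes. It was compared with SPONT cultures, which also serve as reference for CNTF and 1% FBS, so these 3 comparisons share their control libraries. Of 39 members tested 4 were called, 3 higher and 1 lower, against 6.55% of all genes, 2.8% higher and 3.75% lower. The median log2FC was 0.31 over all members tested, 0.63 over 24 mature genes and −0.01 over all genes. Of the 25 mature genes 20 averaged 1 CPM or more in either group. In 10 of these 20 every IGF-1 library lay above every SPONT library, in 1 every one lay below, and in 9 the groups overlapped. Of all 12801 genes at that level, 12.2% lay wholly above and 14.4% wholly below. Of the mature genes 2 of the 24 tested were called.

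Mbp was 1 of these 10. Its IGF-1 libraries held 1507, 1490, 1323 and 1287 CPM and its SPONT libraries 749, 567, 116 and 114 CPM. The groups did not overlap, but SPONT split into a high and a low pair, and Mbp was not called (log2FC 1.91, SE 0.546, adjusted p 0.0266). Cldn11, the tight junction protein of myelin, read 109, 121, 96.2 and 104.3 CPM against 58.9, 45.3, 15.1 and 14.6 CPM (log2FC 1.73, adjusted p 0.0136). Enpp6 read 61.6, 56.8, 58.7 and 63.2 CPM against 49.7, 26.3, 6.85 and 6.97 CPM, again apart and again not called (log2FC 1.48). The members called were the sulphotransferase gene Gal3st1 (log2FC 0.93, SE 0.178, adjusted p 0.0076), the regulator Nkx6-2 (log2FC 0.85, SE 0.148, adjusted p 0.00607), the deacetylase gene Sirt2 (log2FC 0.77, SE 0.15, adjusted p 0.00821) and, lower, Cspg4 (log2FC −0.47, SE 0.085, adjusted p 0.00675). Of the 6 astrocyte markers 1 rose and 1 fell, with sums of 18442, 19703, 17663 and 18164 CPM in IGF-1, above all SPONT sums, most of it Gfap, and their part in the result was not tested. Of the other early genes Olig1 (log2FC −0.41), Olig2 (−0.41), Nkx2-2 (−0.05), Gpr17 (0.02) and Bcas1 (0.68) were not called. Pdgfra, the receptor gene of dividing precursors (log2FC −1.17), and Pcdh15 (−0.96) fell, the 2 called of 8 other early genes.

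The count changed with the libraries of both groups, for all genes as for the members. With SPONT replicates 3 and 4 as the only controls 28 members and 37.2% of all genes were called, and with replicates 1 and 2 as the only controls 0 members and 0 of all genes were, a split of the controls chosen after seeing the data. Leaving out SPONT replicate 2 gave 18 (37.9% of all genes) and replicate 1 gave 9 (3.4%), while leaving out SPONT replicate 3 or 4 or any single IGF-1 library gave 0, with at most 1 of all genes called. DESeq2 called 16 members and 24.2% of all genes, a single fit of all groups 11 and 25.1%, a fit without the filter on low counts 7 and 5.99%, and a fit with replicate number as a block 0 members and 1 of all genes.

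CNTF signals through gp130 and STAT3 and was added to favour astrocytes. Of the 7 early lineage genes 5 were lower with it than in SPONT. Members called were 16 of 38, 2 higher and 14 lower, against 19.9% of all genes, 10.8% higher and 9.15% lower. In median log2FC the values were −0.44 over the members and −0.01 over all genes. Among the early genes Gpr17 gave the widest gap, with 411, 440, 398 and 465.8 CPM in CNTF cultures below all 4 SPONT libraries (log2FC −1.87, SE 0.208, adjusted p 6.71e-05). Cspg4 (−0.80), Nkx2-2 (−0.70), Olig1 (−0.39) and Olig2 (−0.34) fell by less in log2FC, and Bcas1 (−0.45) and Enpp6 (−0.88) were not called. Mal (log2FC −1.85), Neu4 (−1.70), Fa2h (−1.61), Itpr2 (−1.29), Zfp488 (−1.07) and Fyn (−0.80) were the other members furthest down. Trf rose from 15.6, 18.4, 15.8 and 14.1 CPM to 116, 109, 111 and 111 CPM (log2FC 2.83, SE 0.097, adjusted p 2.62e-08), and Nkx6-2 rose with log2FC 0.66. Among other lineage genes 3 of 8 early ones fell and 3 of 14 mature ones rose, led by the adhesion gene Cntn2 (log2FC 3.40) and the receptor gene Lpar1 (3.11). Of the 6 astrocyte markers 2 rose and 2 fell, with sums of 25705, 26160, 26970 and 26289 CPM in CNTF and 11688 to 15339 CPM in SPONT, most of it Gfap, and their part in the result was not tested. Leaving out any CNTF library lowered the 16 to between 8 and 10, with 13.5 to 14.2% of all genes. The 5 early genes lower became 3 without any CNTF library or SPONT replicate 3 or 4, and 3 with replicate number as a block. With SPONT replicates 3 and 4 alone as controls 29 members and 42.3% of all genes were called and the value of Enpp6 turned to 0.85, while with replicates 1 and 2 alone 17 members and 10.8% of all genes were called.

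IGF-1 and CNTF cultures were also set directly against each other. Olig1 had 1963, 1959, 1634 and 1692 CPM with IGF-1 and 1938, 1851, 1737 and 1918 CPM with CNTF. These ranges overlapped, with log2FC 0.00, and Olig2 gave −0.05. Of 38 members 28 were called, 27 higher with IGF-1 and 1 lower, against 37.6% of all genes, 18.8% higher and 18.8% lower. Medians of log2FC were 0.90 over the members and 0.01 over all genes. Among the early genes Enpp6 (2.36), Gpr17 (1.90), Bcas1 (1.13), Nkx2-2 (0.66) and Cspg4 (0.34) were higher with IGF-1.

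Mbp held 260, 276, 303 and 308 CPM with CNTF, well under its IGF-1 libraries (log2FC 2.33, SE 0.063, adjusted p 5.34e-14). Fa2h, which hydroxylates the fatty acids of galactolipids, read 86.5, 88.1, 74.7 and 79.5 CPM with IGF-1 and 18.4, 16.9, 15.5 and 17.8 CPM with CNTF (log2FC 2.30, SE 0.061, adjusted p 3.53e-14). Both groups were tight and far apart. Neu4 (log2FC 2.02), Gal3st1 (1.58), Itpr2 (1.55) and Myrf (1.50) came next, and Trf was lower (−2.70). In the other lineage genes 5 of 8 early ones were higher and 1 lower, and 4 of 14 mature ones higher and 4 lower, with Cntn2 (log2FC −3.49) and Bmp4 (3.11) furthest apart. Of the 6 astrocyte markers 2 were higher with IGF-1 and 2 lower, with sums of 17663 to 19703 CPM in IGF-1 and 25705 to 26970 CPM in CNTF, without overlap, and their part in the result was not tested. The count lay at 26 to 28 without any single library, with 31.4 to 38.1% of all genes, and at 17 in a single fit of all groups, with 21.8%.

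Serum at 1% was added to NPC to favour astrocytes, and this lowest dose changed few members. In 1% FBS 6 of 39 members were called, 2 higher and 4 lower than in SPONT, against 8.78% of all genes, 5.63% higher and 3.15% lower. Over the members the median log2FC was −0.32, and over all genes −0.00. Of the 6 astrocyte markers 4 rose, with sums of 15339, 13487, 11688 and 11726 CPM in SPONT and 22403, 26473, 24372 and 22214 CPM in 1% FBS, most of it Gfap, and their part in the result was not tested. Carbonic anhydrase gene Car2 read 74, 60.2, 60.7 and 104.4 CPM against 29.5, 22.3, 24.7 and 24.8 CPM, without overlap (log2FC 1.57, SE 0.16, adjusted p 0.00012), and Trf rose with log2FC 1.30. Olig1 (−0.56), Olig2 (−0.50), Nkx2-2 (−0.62) and Fyn (−0.49) fell, and Cspg4 (−0.32), Gpr17 (0.02), Bcas1 (−0.28) and Enpp6 (−0.41) were not called. Sox10 (log2FC −1.71) fell and the stress-linked gene Ndrg1 (0.92) rose, out of 1 early and 2 mature other genes called. The 6 became 2 without 1% FBS replicate 2 or 3 or SPONT replicate 3, and 3 without 1% FBS replicate 1 or 4 or SPONT replicate 4, with 4.14 to 6.08% of all genes. It was 3 with replicate number as a block (5.58%, and 1 early gene), 2 with SPONT replicates 1 and 2 alone (1.76% of all genes) and 9 with replicates 3 and 4 alone (13.7%), where Enpp6 turned to 1.29. The 3 early genes that fell became 0 without 1% FBS replicate 2 or 3 or SPONT replicate 3, and 1 without 1% FBS replicate 1 or 4 or SPONT replicate 4.

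The dose of serum had a far larger effect. Summed early RNA fell from 5284, 4609, 4914 and 4297 CPM in 1% FBS to 1614, 3075, 1947 and 1140 CPM in 5% FBS. At 10% it was 605, 1050, 666 and 529 CPM and at 20% 410, 435, 419 and 397 CPM. Each step lay below the one before, without overlap. Between 20% and 1% FBS 32 of 37 members were called, 2 higher and 30 lower, against 60% of all genes, 30.4% higher and 29.6% lower. In median log2FC the values were −2.38 over the members and −0.00 over all genes. All 6 astrocyte markers fell too, at summed levels of 5684, 5030, 5513 and 5474 CPM in 20% FBS, under all libraries of 1% FBS. Of 5 markers of fibroblasts and pericytes 3 rose, with sums of 66.9, 51.2, 19.6 and 13.7 CPM and 502, 439, 529 and 418 CPM, and their part in the result was not tested.

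Gpr17 stood at 1921, 1653, 1733 and 1036 CPM in 1% FBS and 2.07, 2.42, 1.88 and 4.45 CPM in 20% FBS (log2FC −9.23, SE 0.327, adjusted p 1.59e-10). In 5% FBS it read 224, 1001, 283 and 129 CPM, and in 10% FBS 3.72, 152, 31.5 and 8.13 CPM. Replicate 2 was the highest at both middle doses. Bcas1 (log2FC −4.77), Olig2 (−3.19), Olig1 (−2.75), Nkx2-2 (−2.39) and Cspg4 (−2.38) fell as well. Enpp6 did not follow, with 22.2, 15.8, 19.5 and 9.16 CPM in 1% FBS and 20, 23.5, 24.9 and 16.5 CPM in 20% FBS. These ranges overlap, and it was not called (log2FC 0.32). Zfp488 (−8.36), Neu4 (−8.24), Fa2h (−6.75), Opalin (−6.38), Ugt8a (−6.21) and Gjc3 (−5.66) were the other members furthest down in log2FC, and most ended under 1 CPM. Ppp1r14a, an inhibitor of myosin phosphatase that smooth muscle also makes, rose to 4.65, 6.59, 5.74 and 3 CPM (log2FC 5.17, SE 0.316, adjusted p 2.01e-08), and Trf rose with log2FC 1.80. Of the other lineage genes 5 early and 5 mature ones fell and 2 of each rose, with the tenascin gene Tnr (log2FC −7.55) and the semaphorin receptor gene Plxnb3 (−5.07) furthest down. CNTF added to 5% FBS left early RNA at 1618, 1432, 1522 and 1513 CPM, within the range of 5% FBS alone.

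Grafting puts NPC among axons, which myelinating cells need as a substrate. Graft uninjured was compared with NPC DCH, which had passed through the hydrogel and pipette of the graft procedure. All 40 members could be tested, and 37 were called, 35 higher and 2 lower, against 53.7% of all genes, 28.4% higher and 25.3% lower. Medians of log2FC were 7.03 over the members and 0.12 over all genes. Markers of other cells rose with them. All 7 neuronal markers, 5 of 6 of astrocytes, 6 of 6 of microglia and macrophages, 4 of 4 of endothelium and 5 of 5 of fibroblasts and pericytes were higher. The neuronal ones, led by Snap25, summed to 6.42, 2.86, 2.64, 3.46 and 4.08 CPM in NPC DCH and 3239, 2011, 1673, 1511 and 7750 CPM in the grafts. The astrocyte ones, led by Gfap, summed to 1257 to 1303 CPM in NPC DCH and 12243 to 19072 CPM in the grafts. Their part in the result was not tested.

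Mbp went from 11.9, 6.6, 5.55, 8.15 and 6.17 CPM in NPC DCH to 6846, 13486, 7599, 15412 and 12347 CPM in Graft uninjured (log2FC 10.54, SE 0.407, adjusted p 2.09e-09). Replicates 1 and 3 were the lowest grafts and still far above any culture. Gpr17 read 2.98, 1.17, 1.9, 2.07 and 2.84 CPM before and 1172, 1307, 1312, 958 and 237 CPM after grafting (log2FC 8.84). Enpp6 (9.24), Bcas1 (2.39) and Cspg4 (1.33) also rose in log2FC, while Olig1 (−0.96) and Olig2 (−1.79) fell and Nkx2-2 (−0.46) was not called. Against NPC P15 D3 the value of Olig1 turned to 0.41. Neu4 (12.47), Fa2h (11.45), Mag (10.97), Hapln2 (10.96), Mog (10.94) and Opalin (10.88) had the largest rises, all from under 1 CPM, so that their log2FC rests on a few counts. Of 8 other early genes 6 rose and of 14 other mature genes 12, led by the adhesion gene Ninj2 (log2FC 11.61) and the membrane protein gene Evi2a (10.67). The count stayed at 37 whichever library was left out, uninjured replicate 5 among them.

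Differentiated cultures and grafts at 14 days split the members by role. In 17 of 25 mature genes all 15 grafts at 14 days lay above all 32 libraries of the 8 differentiated cultures, while this held for 0 of 7 early and 0 of 8 intermediate genes. It held for 981 of the 15078 genes that average 1 CPM or more in either set, or 6.51%. Only 3 members, Gjb1, Hapln2 and Ermn, were under 1 CPM in each of the 32 culture libraries and over 1 CPM in each of the 15 grafts, as were 297 of all these genes, or 1.97%. The 3 encode a connexin of paranodal loops, a node link protein and a cytoskeletal protein of the myelin sheath. The highest culture value was 0.308 CPM for Gjb1, 0.283 for Hapln2 and 0.429 for Ermn. The IGF-1 cultures, with Mbp at 1287 CPM or more, were among those libraries. Neuronal markers summed to 252 to 7750 CPM in these grafts and at most 37.4 CPM in these cultures. Microglia and macrophage markers summed to 146 to 8453 CPM and at most 7.5 CPM, while astrocyte sums overlapped, at 6536 to 22785 and 5030 to 26970 CPM. The part of these markers in the result was not tested.

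**Figure D2:**
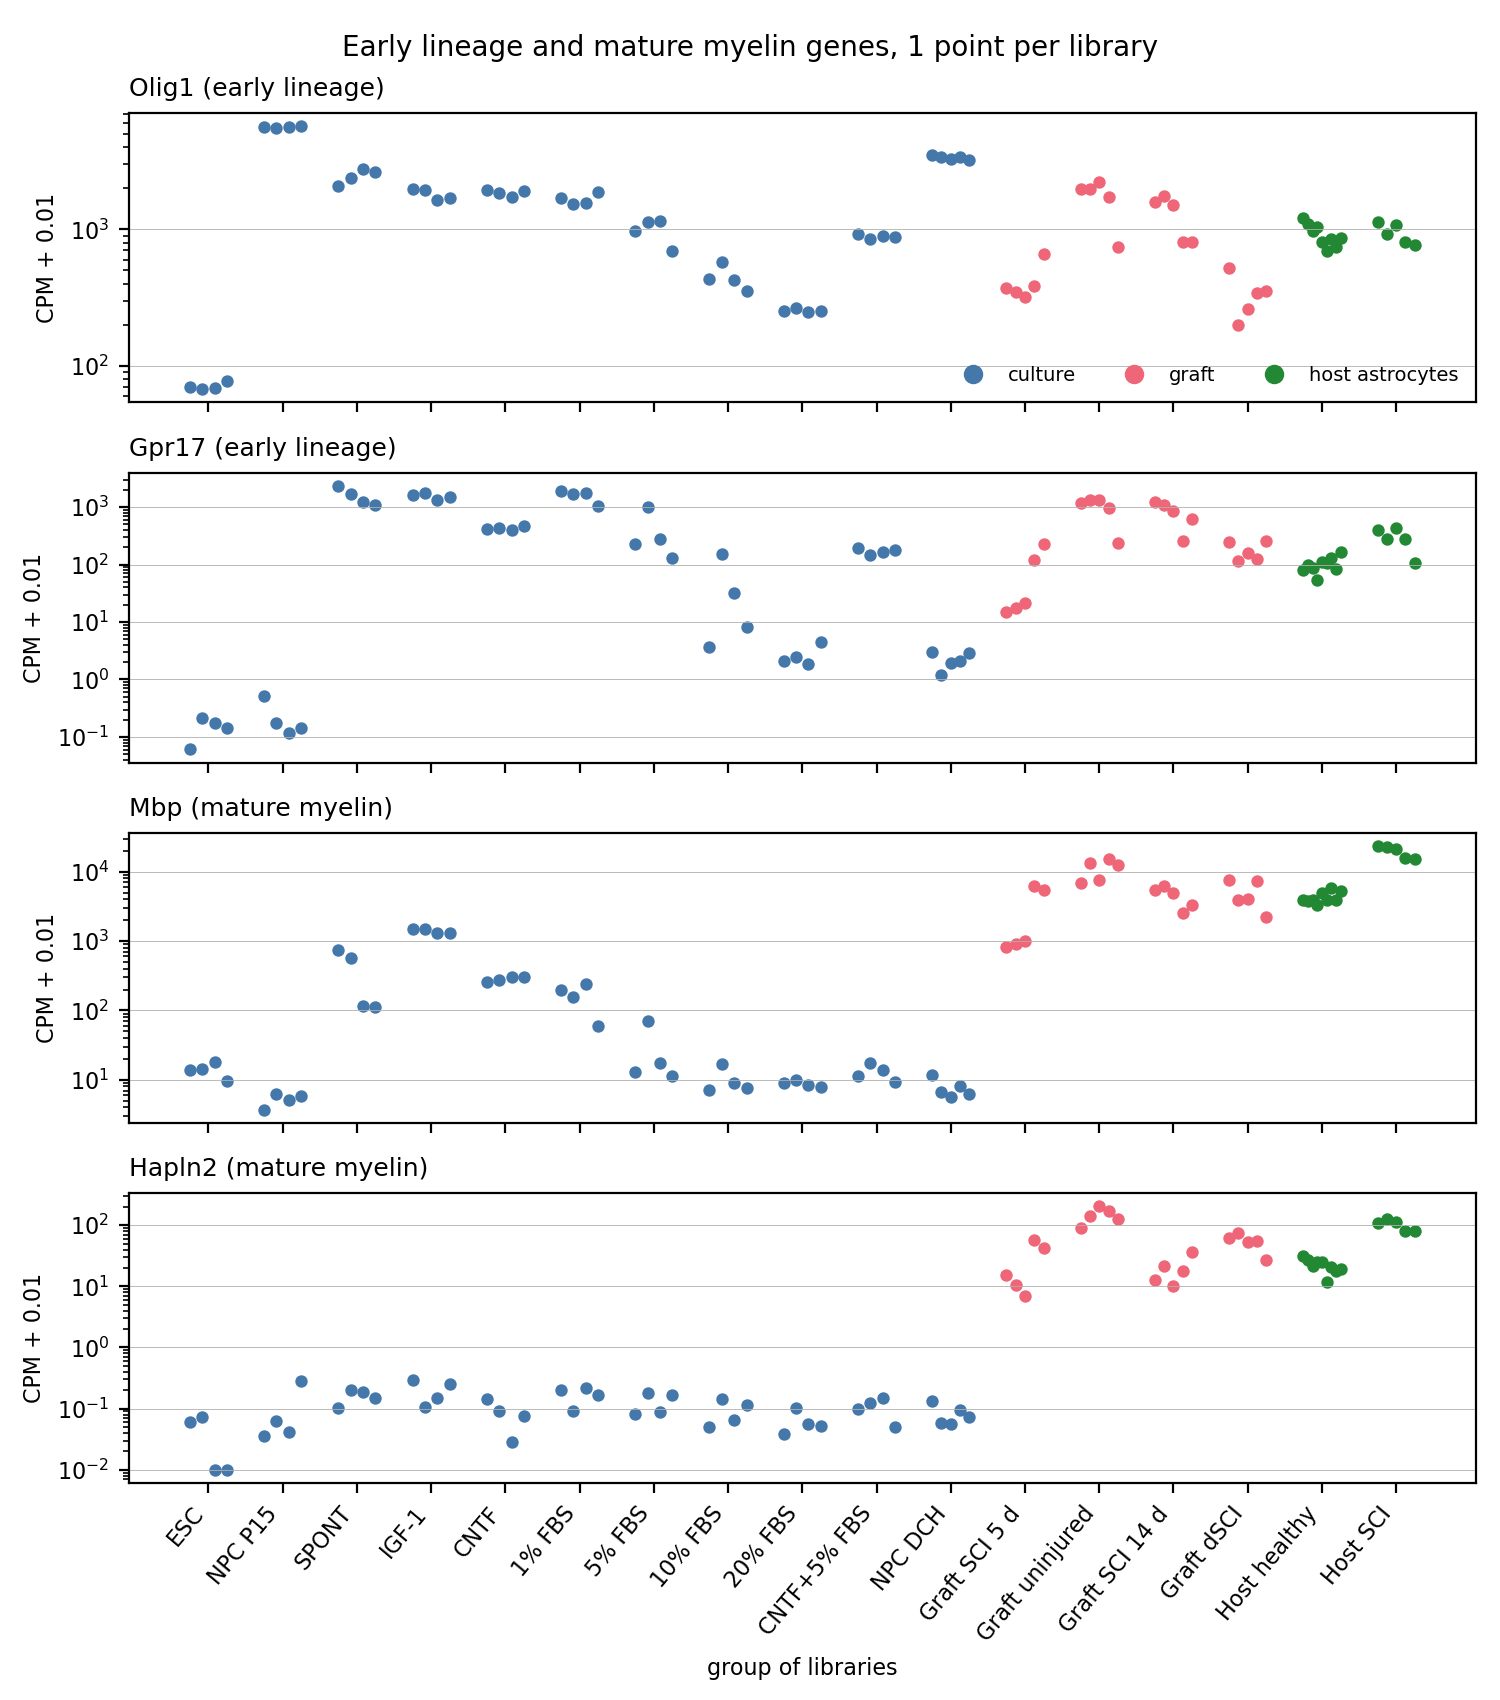
CPM (log axis, with 0.01 added) of 2 early lineage genes and 2 mature myelin genes in 17 groups, 1 point per library, coloured by culture, graft or host. Hapln2 lies at 0.283 CPM or less in all differentiated cultures and at 10.3 CPM or more in all grafts at 14 days, while the ranges of Olig1 overlap.

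A crush lesion removes axons and fills with inflammatory and scar-forming cells, and Graft SCI 14 d asks how NPC fare there. Called members were 7 of 40, each of them lower and each a mature gene, against 4.64% of all genes, 2.09% higher and 2.55% lower. The median log2FC was −1.02 over the 25 mature genes, −0.02 over the 7 early genes, −0.34 over the 40 members and −0.05 over all genes. In 9 of the 25 mature genes every lesion graft lay below every uninjured one and in 16 the groups overlapped, against 13% wholly below and 1.65% wholly above among the 15202 genes averaging 1 CPM or more in either group. By edgeR with an unadjusted p below 0.05, 0 of the 7 early genes were lower and 0 higher, and DESeq2 called 0 lower and 0 higher.

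Hapln2 (Entrez 73940, chr3:88020558-88027511) held 89.8, 140, 204, 172.3 and 125 CPM in uninjured cord and 12.6, 21.5, 10.3, 17.7 and 36.2 CPM in the lesion. The ranges were well apart, and Hapln2 fell with log2FC −2.54, SE 0.363, adjusted p 0.000916. Ermn held 165, 285, 81.6, 368 and 366 CPM and 41.1, 62, 57.7, 43.6 and 51.9 CPM, again apart (log2FC −2.04, SE 0.355, adjusted p 0.00279). Aspa, which cleaves N-acetylaspartate (log2FC −1.78), Gpr37 (−1.76), Car2 (−1.45), Ugt8a (−1.42) and Tmem88b (−1.39) were the rest. Mbp, with 5448, 6210, 4852, 2548 and 3344 CPM in the lesion against 6846 to 15412 CPM, did not overlap either but missed the threshold (log2FC −1.07, SE 0.292, adjusted p 0.0264). Olig1, by contrast, overlapped widely, with 1979, 1975, 2216, 1716 and 739 CPM in uninjured cord and 1594, 1756, 1518, 813 and 811 CPM in the lesion (log2FC −0.15). Olig2 (−0.02), Nkx2-2 (−0.01), Cspg4 (0.01), Gpr17 (−0.05), Bcas1 (0.04) and Enpp6 (−0.28) had log2FC near 0. These values include uninjured replicate 5, with an early sum of 1794 CPM against 4751 to 6054 CPM in the other uninjured grafts. Early sums in the lesion were 4865, 4818, 4092, 2320 and 2427 CPM. Without uninjured replicate 5, 0 early genes were called higher and 0 lower. Of 14 other mature genes 2 fell, the actin-binding protein gene Anln (log2FC −2.46) and Cntn2 (−1.93).

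Neuronal markers moved with these genes. All 7 were lower in every lesion graft than in every uninjured one and 4 were called, with sums of 319, 388, 252, 573 and 547 CPM in the lesion and Snap25 the most abundant in uninjured cord. Of the 6 astrocyte markers 2 rose, Aqp4 (log2FC 1.28) and Gja1 (1.09), with sums of 19072, 12959, 15604, 12243 and 12855 CPM in uninjured cord and 22785, 21357, 19990, 16005 and 10926 CPM in the lesion, overlapping and most of it Gfap. None of these markers was at 0, and their part in the result was not tested. The 4 endothelial markers had a median log2FC of −1.87, with 0 called by edgeR and 2 called lower by DESeq2. Their sums were 98.6, 164, 77, 341 and 230 CPM in uninjured cord and 44.3, 35.7, 34.4, 56.8 and 71.3 CPM in the lesion. The part of endothelial markers was not tested either. The 7 members called became 1 without lesion replicate 1, 3 or 4, and 2 without lesion replicate 2 or uninjured replicate 2, 4 or 5, with 1.43 to 3.02% of all genes. DESeq2 called 15 members and 12.1% of all genes, and a fit with replicate number as a block 3 and 4.28%, all members lower.

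A double crush adds a second compression of the cord, and in such lesions 4 of the 7 early genes were lower than in uninjured cord. Of the 40 genes 9 were called in Graft dSCI against Graft uninjured, each lower, against 4.19% of all genes, 2.55% higher and 1.64% lower. In median log2FC the values were −1.55 over the early genes, −1.10 over the 40 members and −0.02 over all genes. Olig1 read 521, 200, 260, 343.7 and 353 CPM in Graft dSCI, below all uninjured grafts (log2FC −2.05, SE 0.341, adjusted p 0.0032). Olig2 (log2FC −1.69), Gpr17 (−2.09) and Bcas1 (−1.38) fell too, and Nkx2-2 (−1.55), Cspg4 (−0.95) and Enpp6 (−1.08) were not called. The mature genes called were Fa2h (−1.42), the kinase gene Fyn (−1.39), Gjc3 (−1.33), Hapln2 (−1.22) and Sirt2 (−1.07). Sox8, a factor of the lineage (log2FC −1.88), and Anln (−1.51) led 2 early and 4 mature other genes that fell. Both lesion comparisons use the same 5 uninjured grafts. The 9 became 1 without dSCI replicate 3 or uninjured replicate 2, 2 without dSCI replicate 2 or uninjured replicate 4, 4 without dSCI replicate 4, 5 without uninjured replicate 1 and 13 without uninjured replicate 5, the library low in early RNA. The 4 early genes ran from 1 to 6 in fits without 1 library, and all genes called from 1.2 to 5.3%. Of 6 markers of microglia and macrophages 2 rose, with sums of 437, 391, 146, 208 and 988 CPM in uninjured cord and 1371, 3910, 2578, 8453 and 758 CPM in dSCI, most of the latter from Lyz2. Of 5 fibroblast and pericyte markers 1 rose, and their sums of 4176 to 19320 CPM in dSCI lay above those of 952 to 3012 CPM in uninjured cord, most of the former from Col1a1. None of the 7 neuronal markers was called, at a median log2FC of −1.93, and 4 of them lay wholly below uninjured cord, with sums of 279, 749, 787, 1561 and 438 CPM in dSCI. The part of these markers in the result was not tested. DESeq2 called 22 members, 6 of them early, and 10.9% of all genes, and the block fit 0 members and 0.22%. With DESeq2 size factors as the scaling, edgeR called 6 members, 2 of them early, and 4.45% of all genes.

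The double crush was also set against the single crush. Graft dSCI and Graft SCI 14 d gave 7 called of 40, each lower in dSCI, against 1.83% of all genes, 1.29% higher and 0.538% lower. Medians of log2FC were −1.56 over the early genes, 0.06 over the mature genes and 0.04 over all genes. Olig1 (log2FC −1.92), Olig2 (−1.69), Gpr17 (−2.07) and Bcas1 (−1.43) were lower, and Nkx2-2 (−1.56), Cspg4 (−0.98) and Enpp6 (−0.82) were not called. Gpr17 read 1214, 1069, 839, 260 and 630 CPM in Graft SCI 14 d and 246, 117, 156, 124 and 261 CPM in Graft dSCI. Only the highest dSCI library passed the lowest of the other group. Fyn (−1.36), Gjc3 (−1.28) and Lhfpl3 (−1.28) were the other members called. Among other lineage genes the lipocalin gene Apod rose (log2FC 3.18) and Sox8 fell (−1.48), the 1 mature and the 1 early gene called.

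All 5 markers of fibroblasts and pericytes were higher in dSCI. They summed to 19320, 7312, 6907, 8734 and 4176 CPM in dSCI and 990, 642, 812, 1009 and 2563 CPM in the single crush, with Col1a1 the most abundant in dSCI and none at 0. Their part in the result was not tested. Of 4 endothelial markers 1 rose, at a median log2FC of 2.66, and DESeq2 called 4 higher. Of 6 microglia and macrophage markers 0 were called, at a median log2FC of 1.62. The latter summed to 758 to 8453 CPM in dSCI and 400 to 1315 CPM in the single crush. The part of these 2 lists was not tested either. The 7 members called became 0 without dSCI replicate 2 or SCI replicate 1, 2 or 3, 1 without dSCI replicate 3 or 4, 2 without dSCI replicate 1, 3 without SCI replicate 4 and 12 without SCI replicate 5, and the 4 early genes ran from 0 to 6 and all genes called from 0 to 6.55%. DESeq2 called 17 members, 15 lower and 2 higher, and 8.08% of all genes, with 6 early genes among the lower. The block fit called 0 members and 0 of all genes.

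Time in the lesion was followed from 5 to 14 days after grafting, when precursors would multiply and begin to mature. Graft SCI 14 d against Graft SCI 5 d gave 7 called of 40, each higher, against 5.3% of all genes, 2.72% higher and 2.58% lower. The median log2FC was 1.80 over the early genes, 0.75 over the mature genes and −0.00 over all genes. Olig2 read 47.3, 50.9, 49.2, 69.8 and 132 CPM at 5 days and 347.8, 347.2, 306, 172.3 and 187.2 CPM at 14 days. All libraries at 14 days lay above those at 5 days (log2FC 2.12, SE 0.304, adjusted p 0.00106). Olig1 (log2FC 1.79), Bcas1 (1.80), Cspg4 (1.56) and Nkx2-2 (1.29) rose too, with Itpr2 (1.34) and Fyn (1.22). Gpr17 held 14.8, 17.7, 21.1, 119.3 and 232 CPM at 5 days, where replicates 4 and 5 were high, and with Enpp6 it was not called (log2FC 3.45 and 2.03). Of the other lineage genes 2 early and 2 mature ones rose, Sox8 (log2FC 1.78) and Plxnb3 (1.71) most.

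The split at 5 days was strongest in mature genes. Mbp read 811, 920, 1017, 6324 and 5485 CPM at 5 days, so replicates 4 and 5 reached or passed the range of 14 days and the others did not. Against replicates 1 to 3 alone 34 members were called, 33 higher and 1 lower, and 8.17% of all genes. Leaving out replicate 4 gave 14 and replicate 5 gave 11, leaving out any other library at 5 days or replicate 1 or 3 at 14 days gave 4, and leaving out replicate 2 at 14 days gave 3. The 5 early genes became 3 without any of replicates 1 to 4 at 14 days or 1 to 3 at 5 days, and 6 without replicate 4 or 5 at 5 days, with 2.3 to 7.5% of all genes called. DESeq2 called 16 members, 14 higher and 2 lower, and 11.6% of all genes. A single fit of all groups called 20 and 15%, a fit without the filter on low counts 11 and 4%, and the block fit 3, 2 of them early, and 1.76%. Microglia and macrophage markers, Lyz2 among them, summed to 468, 1028, 592, 11639 and 790 CPM, with replicate 4 highest. Neuronal markers summed to 82.7, 106, 93.8, 1090.5 and 196 CPM at 5 days. Endothelial markers summed to 22.6, 47, 25.1, 263 and 121 CPM, and replicates 4 and 5 were the highest in both lists. Of 5 markers of fibroblasts and pericytes 3 fell to day 14, from sums of 4420, 8679, 12378, 5115 and 4076 CPM at 5 days, most of it Col1a1. The part of these markers in the result was not tested. Libraries at 5 days also have 1 set of reads each and those at 14 days 2, so time and sequencing cannot be told apart.

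Host astrocytes are not of this lineage, yet their libraries held much myelin RNA, and more of it after injury. The 6 astrocyte markers summed to 41863 to 48996 (median 46990) CPM in Host healthy, which is more than in any graft, and to 32912, 25809, 39025, 44219 and 31627 CPM in Host SCI. Of the 40 members 31 were called in Host SCI against Host healthy, each higher, against 41.1% of all genes, 22.2% higher and 18.8% lower. Medians of log2FC were 1.24 over the members and 0.02 over all genes.

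Mbp held 3305 to 5823 (median 3965) CPM in Host healthy and 23358, 22692, 21218, 15795 and 15030 CPM in Host SCI. The groups were far apart (log2FC 2.00, SE 0.141, adjusted p 4.17e-09). Gjb1 rose most, from 28.1 to 44.8 (median 33.4) CPM to 244, 241, 204, 157 and 185 CPM (log2FC 2.38, SE 0.124, adjusted p 1.29e-10), and Nkx6-2 (log2FC 2.20), Trf (2.20), Gal3st1 (2.18) and Hapln2 (2.03) followed. Enpp6 (log2FC 2.34, SE 0.223, adjusted p 1.41e-07) rose most of the early genes, with Bcas1 (log2FC 1.57), Gpr17 (1.36), Cspg4 (1.17) and Nkx2-2 (0.94). Olig1 held 696 to 1212 (median 867) CPM and 1125, 927, 1085, 813 and 766 CPM. It overlapped and was not called (log2FC −0.14), and neither was Olig2 (0.19). The protease gene Klk6 (log2FC 4.83) and Apod (3.69) rose most of 5 early and 13 mature other lineage genes that rose.

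Markers of other cells rose in the same libraries. Of 6 microglia and macrophage markers 5 rose, with sums of 11.9 to 26.7 (median 19.4) CPM in Host healthy and 287, 1598, 216, 215 and 403 CPM in Host SCI, most of the latter from Lyz2. Of 5 markers of fibroblasts and pericytes 4 rose, and 4 of 6 astrocyte markers and 4 of 7 neuronal markers fell. Schwann cells make the myelin of peripheral nerve, and their markers Prx (log2FC 0.73), Ncmap (1.20), Egr2 (1.34) and Pmp2 (2.06) rose too. Pmp2 held 6.81 to 14.5 (median 10.3) CPM in Host healthy and 53.2, 71.2, 31.5, 47.3 and 52 CPM in Host SCI, without overlap. None of these markers was at 0, and their part in the result was not tested. Against Host healthy replicates 8 and 9 alone, the pair without Y-linked RNA, 19 members were called, each higher, and 17% of all genes. The early genes called fell from 5 to 3, without Nkx2-2 (log2FC 0.92) and Gpr17 (1.03). Depth differed too, at 69708549 to 97184599 counts in Host healthy and 99987229 to 117082323 in Host SCI.

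Grafts and host astrocytes of uninjured cord were compared to set NPC progeny beside a mature glial population. Graft uninjured against Host healthy gave 22 called of 40, 21 higher and 1 lower, against 49.7% of all genes, 26.5% higher and 23.3% lower. The median log2FC was 1.59 over the early genes, 0.57 over the mature genes and 0.06 over all genes. Gpr17 held 53.8 to 162 (median 97) CPM in Host healthy, under each of the grafts (log2FC 2.72, SE 0.292, adjusted p 3.29e-07). Enpp6 (log2FC 2.40), Cspg4 (2.26), Bcas1 (1.59), Olig2 (0.86) and Nkx2-2 (0.68) were higher too, and Olig1 (0.35) was not called. Hapln2 (2.17), Neu4 (1.80), Trf (1.50), Zfp488 (1.50), Nkx6-2 (1.43) and Myrf (1.39) led the rest, and Car2, which astrocytes also make, was lower (−1.15). Of the other lineage genes 8 of 8 early and 10 of 14 mature ones were higher and 1 mature one lower, with Bmp4 (log2FC 2.99) and Apod (2.67) largest. All 6 astrocyte markers were lower in grafts. All 7 neuronal, 6 of 6 microglia and macrophage, 4 of 4 endothelial and 3 of 5 fibroblast and pericyte markers were higher. Prx (−2.59), Ncmap (−2.96) and Pmp2 (−4.91), which mark the Schwann cells that make peripheral myelin, were lower in log2FC, and Egr2 (−0.83) was not called. The part of these markers in the result was not tested. Against Host healthy replicates 8 and 9 alone 4 members and 15.1% of all genes were called, with Cspg4 and Enpp6 as 2 early genes in place of 6, and without uninjured replicate 5 there were 25 members.

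With injury 7 of 25 mature myelin genes were called lower in grafts, where members called ran from 1 to 9 when 1 library was left out. In host libraries 21 of 25 were called higher. Sex and injury cannot be told apart there where healthy hosts with Y-linked RNA serve as reference. The difference between these changes was tested by itself, as the change in grafts minus the change in hosts. Of 40 members 29 were called, each with the graft change below the host change, against 16.8% of all genes, 6.11% above and 10.7% below. The median difference was −1.69 over the members, −2.30 over the mature genes, −1.20 over the early genes and −0.13 over all genes. Markers of other cells differed too. Of microglia and macrophage markers 4 of 6 lay below, Lyz2 (−4.99) furthest, with 3 of 5 of fibroblasts and pericytes and 2 of 4 of endothelium. Of astrocyte markers 4 of 6 lay above, Gja1 (2.71) furthest, and the part of these markers in the result was not tested. The members called were 23 of 25 mature, 2 of 8 intermediate and 4 of 7 early genes. Hapln2 gave the largest difference among the members (log2FC −4.61, SE 0.391, adjusted p 4.11e-09), with grafts lower and hosts higher after injury. Gjb1 (−4.11), Ppp1r14a (−3.36), Mag, a surface adhesion protein (−3.22), Ermn (−3.19) and Mbp (−3.10) came next. Of the early genes Enpp6 (−2.64), Bcas1 (−1.57), Cspg4 (−1.20) and Nkx2-2 (−0.98) differed, and Gpr17 (−1.44), Olig2 (−0.25) and Olig1 (−0.05) were not called. Klk6 (difference −6.76) and Apod (−5.94) led 13 of 14 other mature genes and 4 of 8 other early genes that differed the same way. With Host healthy replicates 8 and 9 as the only healthy hosts 18 members and 4.92% of all genes differed, and of the early genes only Enpp6 (−2.19), while without uninjured replicate 5 there were 33 members. With replicate number as a block 2 early genes differed.

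**Figure D3:**
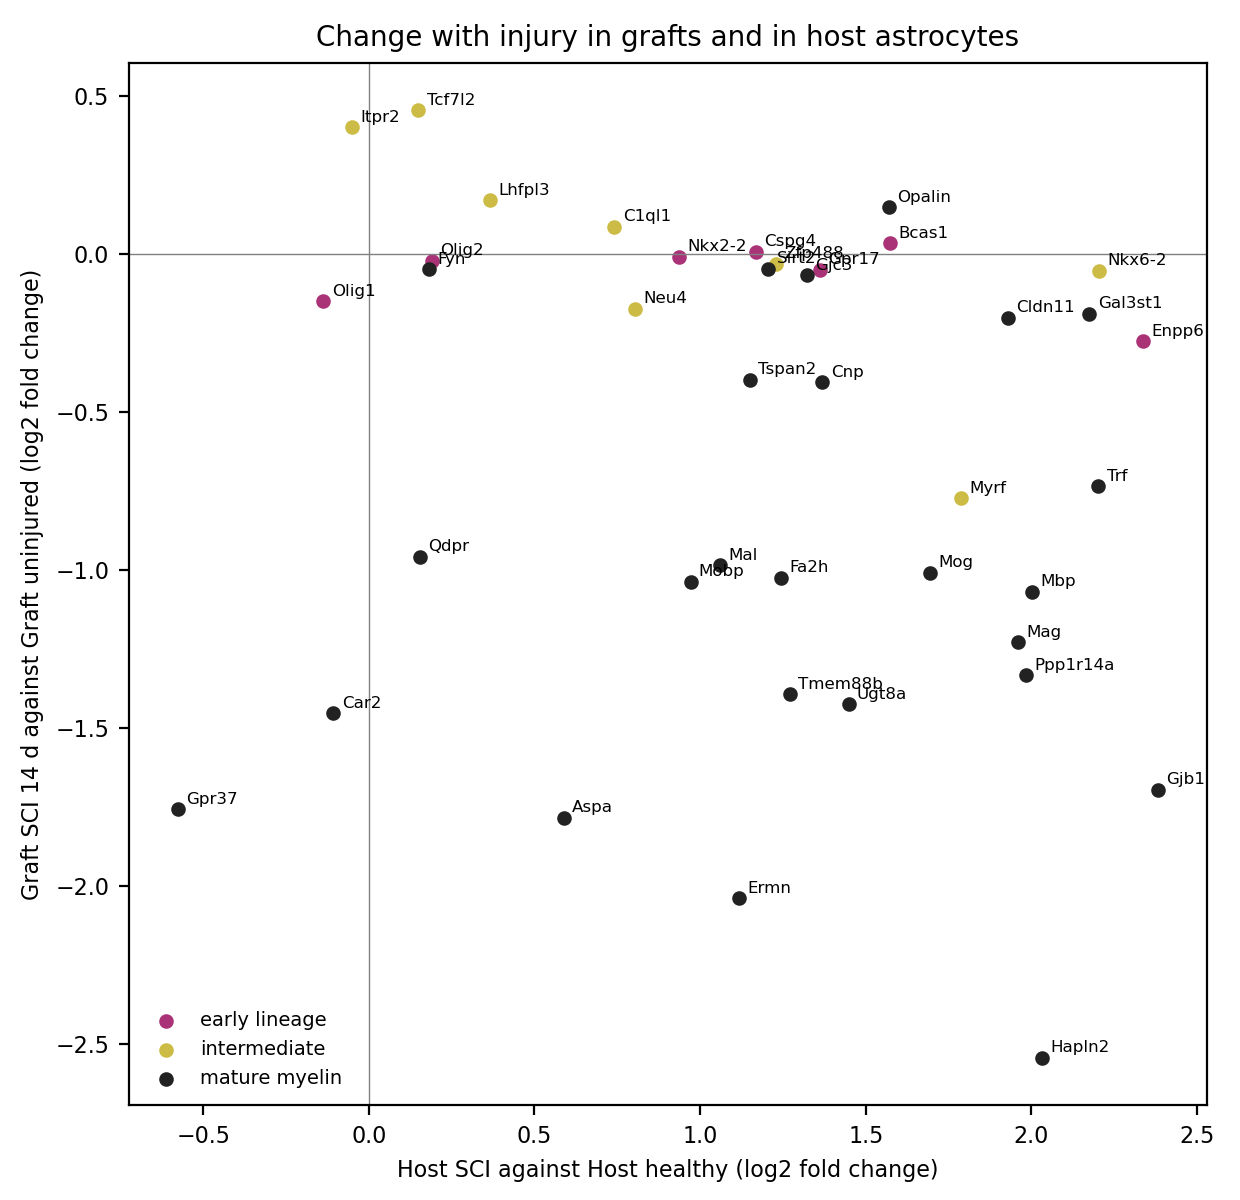
Log2 fold change with injury of each of the 40 members in host astrocyte libraries (horizontal, Host SCI against Host healthy) and in grafts (vertical, Graft SCI 14 d against Graft uninjured), 1 point per gene. Hapln2 lies lowest at −2.54 in grafts and 2.03 in hosts, and Olig1 lies near the origin at −0.15 and −0.14.

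Promoter sequences from RefSeq (GRCm38.p6) were at hand for 31 of the 40 members, as the 250 bases before the start. Some members have more than 1 start, so these 31 have 40 promoters. They were searched on both strands for short motifs that factors of this lineage are known to bind: the E-box CAGCTG of helix-loop-helix proteins, ACAAAG and ACAATG of SOX proteins, and CTGGCAC of MYRF. Of the 40 promoters CAGCTG occurred in 3 (7.5%), against 13% of all 32851 promoters, ACAAAG in 9 (22.5%) against 16.5%, ACAATG in 10 (25.0%) against 10.7% and CTGGCAC in 4 (10.0%) against 4.19%. Some promoters of the same gene, as in Mag and Gal3st1, overlap and share a site. By gene, CAGCTG occurred in 3, ACAAAG in 7, ACAATG in 9 and CTGGCAC in 3 of the 31. The sequences of 3 mature genes are shown: Mobp, which held the most matches, Hapln2, which held the most kinds of motif, and Cnp, the mature gene with the highest FPKM in the differentiated cultures. Cnp held 2 kinds of motif, as did promoters of Mag and Gjb1, which are not shown. Motif letters on either strand are in capitals, and a match describes letters only. Mobp lies at chr9:120149492-120149741 (plus strand), Hapln2 at chr3:88027512-88027761 (minus strand) and Cnp at chr11:100574689-100574938 (plus strand).
Mobp: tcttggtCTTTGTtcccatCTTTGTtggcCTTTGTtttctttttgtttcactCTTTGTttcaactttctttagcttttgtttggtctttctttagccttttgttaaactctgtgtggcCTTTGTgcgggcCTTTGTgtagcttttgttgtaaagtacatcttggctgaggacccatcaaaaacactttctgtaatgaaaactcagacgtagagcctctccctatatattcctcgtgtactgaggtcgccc
Hapln2: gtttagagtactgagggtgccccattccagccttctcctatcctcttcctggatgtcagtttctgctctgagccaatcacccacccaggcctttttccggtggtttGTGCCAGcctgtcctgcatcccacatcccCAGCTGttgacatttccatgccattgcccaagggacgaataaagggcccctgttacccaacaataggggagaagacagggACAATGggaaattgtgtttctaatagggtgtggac
Cnp: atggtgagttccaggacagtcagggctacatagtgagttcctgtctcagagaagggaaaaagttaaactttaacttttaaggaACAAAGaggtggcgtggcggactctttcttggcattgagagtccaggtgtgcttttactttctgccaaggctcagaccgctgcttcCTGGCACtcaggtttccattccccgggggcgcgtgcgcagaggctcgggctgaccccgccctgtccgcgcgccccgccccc
The Mobp window holds 6 ACAAAG matches, those of Hapln2 3 matches of 3 motifs and those of Cnp 2 of 2.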

How the data were processed

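Values start from the raw count tables deposited by the authors, who worked on Galaxy: lanes were merged, Trimmomatic cut the reads, HISAT2 placed them on mm10, and featureCounts, at default settings, gave the counts. Gene ids were read as mouse Entrez ids through RefSeq symbols. FPKM uses exon lengths from GENCODE M21. Each pair of groups was fitted with edgeR 4.0.16 (R 4.3.3; TMM scaling, filterByExpr, quasi-likelihood F tests), and adjusted p is Benjamini-Hochberg over all genes tested, called below 0.01. SE is the absolute log2FC divided by the root of F. DESeq2 1.42.0 gave the alternative test. Python 3.11.15 with pandas 2.3.3, numpy 2.4.6 and matplotlib 3.10.9 made the tables and figures. Members and lists were chosen with earlier results of these data known.

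The genes named are the 7 early ones in each comparison, the 6 largest called changes in each direction among other members averaging 1 CPM or more in either group, the 3 mature genes with the highest FPKM in each group, and the 2 largest called changes among other lineage genes. The spans of 10 members (Aspa, Bcas1, Cnp, Fyn, Gpr17, Lhfpl3, Nkx2-2, Nkx6-2, Sirt2 and Tspan2) overlap that of another counted gene. The values of 1 marker gene are not reported here.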

Additional observations from a re-analysis of the deposited data

Results flagged for a closer look

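In 2 of 69 tests, 3 gene lists in each of 23 groups, 1 library's summed CPM lay far from the others, and chance flags about 1 in 20 tests. NPC P15 replicate 2 held an early lineage sum of 7609.9 CPM, against 7819.5 to 7862.5 CPM in the other 3 libraries. CNTF replicate 4 held a mature myelin sum of 2231.7 CPM, against 2155 to 2160.9 CPM. Both gaps are small beside the differences between groups.

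The change with injury differed between grafts and host libraries, by a test of the difference itself, for 4 early genes and, among the mature genes named, for 6. The difference in log2FC, grafts minus hosts, was −0.979 for Nkx2-2, −1.197 for Cspg4, −1.572 for Bcas1 and −2.640 for Enpp6. Among mature genes it was −3.100 for Mbp, −3.218 for Mag, −3.187 for Ermn, −4.111 for Gjb1, −4.611 for Hapln2 and −3.356 for Ppp1r14a. With Host healthy replicates 8 and 9 alone, the healthy hosts without Y-linked RNA, the 6 mature genes and 1 early gene, Enpp6, differed. Grafts were taken with the tag in grafted cells and host libraries with the tag in host astrocytes, so tagged cell type and the response to injury cannot be told apart.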

How the results depend on the processing

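Under the alternatives, 3067 of 3517 values for named genes stayed on the same side of the threshold or had no adjusted p. Values called in neither fit count among these even where their sign changed. Another 390 kept direction but were no longer called, 49 became called, and 11 that were called in either fit reversed. The reversed log2FC, for SPONT against NPC P15, were Olig1 1.14 and Olig2 0.11 with NPC P15 D3 as reference, 0.49 and 0.14 with D2, and Cspg4 0.87 (P5), 1.09 (P30), 1.33 (D3) and 0.74 (D2). Olig1 in Graft uninjured was 0.41 against D3. With SPONT replicates 3 and 4 alone Enpp6 was 0.85 in CNTF and 1.29 in 1% FBS. The cause was not tested.

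Members called by DESeq2 were 16 for IGF-1 against SPONT (24.2% of all genes), 15 for Graft SCI 14 d (12.1%) and 22 for Graft dSCI against uninjured (10.9%), 17 for dSCI against SCI 14 d (8.08%) and 16 for 14 against 5 days (11.6%). Without the filter they were 7 for IGF-1 against SPONT (5.99%) and 11 for 14 against 5 days (4%). With all groups in 1 fit they were 11 for IGF-1 against SPONT (25.1%), 17 for IGF-1 against CNTF (21.8%) and 20 for 14 against 5 days (15%). Chosen after seeing the data were SPONT replicates 3 and 4 alone (28 and 37.2% of all genes for IGF-1, 29 and 42.3% for CNTF), replicates 1 and 2 alone (0 and 0% for IGF-1, 2 and 1.76% for 1% FBS), Graft SCI 5 d replicates 1 to 3 alone (34 and 8.17%) and Host healthy replicates 8 and 9 alone (19 and 17% for Host SCI, 4 and 15.1% for Graft uninjured, 18 and 4.92% for the graft-host difference). The cause was not tested.

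With replicate number as a block, members called and percent of all genes, in the order of the report's comparisons from NPC P15 against ESC, were 16 (61.1%), 28 (53.9%), 0 (IGF-1 against SPONT, 0.00669%), 13 (CNTF, 13.8%), 28 (IGF-1 against CNTF, 43.5%), 3 (1% FBS, 5.58%), 32 (20% FBS, 60.4%), 37 (NPC DCH, 48.2%), 3 (SCI 14 d, 4.28%), 0 (dSCI against uninjured, 0.22%), 0 (dSCI against SCI 14 d, 0%), 3 (14 against 5 days, 1.76%), 30 (Host SCI, 25.5%), 16 (Graft against Host, 31.8%) and 24 (difference, 9.89%). Pairing by replicate number was checked too: 16 of 63 libraries correlated best with their own number, r ran from −0.426 to 0.406, and in 0 of 14 comparisons was every pair above 0.1.

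Leaving out 1 library gave 17 to 19 members (63 to 64.6% of all genes) for NPC P15 against ESC, 28 to 30 (49.6 to 57.5%) for SPONT against NPC P15, 0 to 18 (0 to 37.9%) for IGF-1, 8 to 20 (13.5 to 40.2%) for CNTF and 2 to 7 (4.14 to 13%) for 1% FBS against SPONT, 32 to 33 (54.3 to 59.6%) for 20% against 1% FBS and 26 to 28 (31.4 to 38.1%) for IGF-1 against CNTF. In tissue it gave 37 to 37 (49.5 to 53.1%) for Graft uninjured against NPC DCH, 1 to 9 (1.43 to 9.75%) for SCI 14 d and 1 to 13 (1.2 to 5.3%) for dSCI against uninjured, 0 to 12 (0 to 6.55%) for dSCI against SCI 14 d, 3 to 14 (2.3 to 7.5%) for 14 against 5 days, 31 to 32 (34.9 to 41%) for Host SCI, 20 to 25 (46.6 to 50.8%) for Graft against Host and 27 to 33 (13.7 to 20.5%) for the difference. In these last 3 no Host healthy library was left out by itself, so 5, 5 and 15 libraries were. A fit with fewer libraries also has less power.

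TMM scaling moved 27 of 69 summed means by more than 1 SD, by factors of 0.879 to 1.29. Depth limits the lowest genes: at 12286240 counts, the smallest library, a gene at 1 CPM has 12 counts.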
